A study of Mus musculus with 4 samples.

Results

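Transcripts of the ErbB receptors, the Olig factors and the markers of committed oligodendrocyte precursors were followed in mouse cerebral cortex at embryonic day 15 (E15). The members were named by symbol: Egfr, Erbb2, Erbb3 and Erbb4 as ErbB receptors, Olig1 and Olig2 as Olig factors, and Pdgfra, Sox10, Nkx2-2 and Cspg4 as markers of committed precursors. Of these 10 genes, 8 were among the 13289 genes of the table and all 8 passed the filter on low counts. Erbb3 and Nkx2-2 were not analysed here. The members were chosen by name with their log2 fold changes between these same groups already known, so the members' own differences are given as a description and carry no test. Calls and 95% intervals of members given below come from the fit over all genes. They take no account of that choice and are description only.

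The 4 libraries were bulk RNA-seq of polyadenylated RNA from fresh tissue, 2 from control cortex (titled WT) and 2 from Lhx2 cKO cortex. Lhx2 encodes a LIM-homeodomain transcription factor of cortical progenitors, and cKO is read as conditional knockout. The driver, the allele, the strain, the number of embryos per library and whether replicates came from separate litters are not given in the sources used here, so the spread between replicates may be partly technical. Library totals ranged from 22294237 to 24609627 counts, so 3 counts, taken as the lowest detectable level, are worth 0.122 to 0.135 CPM (counts scaled to a common library size). Lhx2 itself was at 316 and 287 CPM in control and at 239 and 247 CPM in Lhx2 cKO, so most of its level was still counted. Counts over a whole gene cannot show whether the transcript that remained was intact. Among genes that define the cortex, Tbr1, Neurod6 and Bcl11b each exceeded 140 CPM in all 4 libraries, while Emx1 was at 119 and 107 CPM in control and at 39.1 and 38.9 CPM in Lhx2 cKO.

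ErbB receptors are tyrosine kinases at the cell surface that pair with each other when they bind ligands of the epidermal growth factor and neuregulin families. Egfr is known in the developing forebrain as a receptor that progenitors gain as they turn from making neurons to making glia. Olig1 and Olig2 are neighbouring basic helix-loop-helix genes, and Olig2 is needed for oligodendrocyte precursors to form. Pdgfra, the receptor for platelet-derived growth factor, Sox10, a transcription factor of the lineage, and Cspg4, the proteoglycan NG2, mark precursors that have entered the lineage. In whole tissue, a change in the number of cells of a type and a change in RNA per cell cannot be told apart.

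The upstream sequences of 4 members are shown because they span the range of differences described below, from Egfr, Olig2 and Pdgfra, which were higher in Lhx2 cKO, to Erbb2, whose Lhx2 cKO libraries lay slightly below control. Each is the stretch of 250 bases before the annotated start from RefSeq on build GRCm38.p6, on the plus strand, 5′ to 3′. Such a window was on hand for 7 of the 10 members. The position is chr11:16751953-16752202 for Egfr, chr16:91225300-91225549 for Olig2, chr5:75152001-75152250 for Pdgfra and chr11:98412234-98412483 for Erbb2. Capitals mark matches on either strand to ATTA, the core letters bound by many homeodomain proteins, or to CANNTG, the E-box letters bound by basic helix-loop-helix proteins.
Egfr: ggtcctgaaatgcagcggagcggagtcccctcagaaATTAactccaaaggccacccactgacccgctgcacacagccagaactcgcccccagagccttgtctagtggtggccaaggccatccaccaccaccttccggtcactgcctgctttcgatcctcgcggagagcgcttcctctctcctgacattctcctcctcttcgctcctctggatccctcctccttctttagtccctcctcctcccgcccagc
Olig2: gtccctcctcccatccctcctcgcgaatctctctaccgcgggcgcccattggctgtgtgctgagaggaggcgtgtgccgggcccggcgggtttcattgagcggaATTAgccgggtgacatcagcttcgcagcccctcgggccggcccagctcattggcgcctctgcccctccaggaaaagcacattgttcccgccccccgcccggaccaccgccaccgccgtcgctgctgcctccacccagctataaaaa
Pdgfra: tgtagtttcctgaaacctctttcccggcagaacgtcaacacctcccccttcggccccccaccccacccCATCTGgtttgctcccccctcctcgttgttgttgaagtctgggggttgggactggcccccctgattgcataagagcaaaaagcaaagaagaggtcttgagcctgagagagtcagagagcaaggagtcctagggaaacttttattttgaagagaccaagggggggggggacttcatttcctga
Erbb2: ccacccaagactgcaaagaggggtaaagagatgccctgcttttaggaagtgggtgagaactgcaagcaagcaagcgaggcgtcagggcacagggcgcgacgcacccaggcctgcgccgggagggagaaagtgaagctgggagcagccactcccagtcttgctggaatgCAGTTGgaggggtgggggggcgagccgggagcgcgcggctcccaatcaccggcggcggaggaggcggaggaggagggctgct

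Egfr and Olig2 each held 1 match to ATTA, whose last base lay 211 and 143 bases before the start. ATTA matches were present in 54.9% of all 32807 promoter windows of the same length, so its presence is common. Pdgfra and Erbb2 each held 1 match to CANNTG, spelled CATCTG in Pdgfra and CAGTTG in Erbb2, against 66.2% of all windows with at least 1. The longer homeodomain site TAATTA, which contains ATTA and occurred in 4.85% of windows, and the E-box CAGCTG, a case of CANNTG that occurred in 13.0%, were not found in any of the 7 members' windows. These are matches of letters in a short window and show no binding.

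Of the 8 members, 6 were higher in Lhx2 cKO at an adjusted p under 0.05 in edgeR's quasi-likelihood test, where 20.8% of all 13288 genes tested were called in either direction and 11.6% were called higher and 9.17% lower. For 7 of the 8 the libraries of one group all lay above those of the other, as for 59.3% of all genes. Since the members were chosen with this contrast in view, nothing is read from these shares. The 6 were Egfr, Erbb4, Olig1, Olig2, Pdgfra and Cspg4, and the exceptions were Erbb2 and Sox10. The calls of Erbb4 and Cspg4 rested on the full set of libraries: without control 1, or without Lhx2 cKO 2, 4 of the 8 were called. CPM values below are scaled with TMM factors, and log2 fold changes are of Lhx2 cKO over control.

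**Figure D1:**
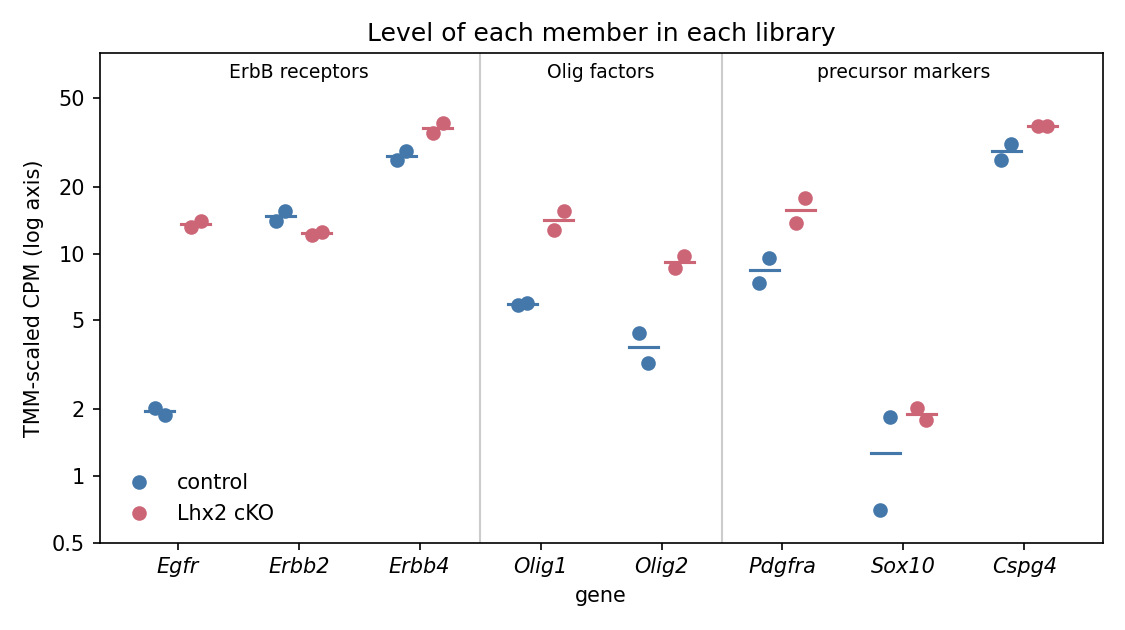
TMM-scaled CPM (log axis) of the 8 members in each of the 4 libraries, with points for libraries and bars for group means. Egfr has the widest gap between groups, from about 2 CPM in control to 13.2 and 14.0 CPM in Lhx2 cKO, while the Sox10 libraries overlap.

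Among the receptors, Egfr stood apart. Egfr (ENSMUSG00000020122.17) had 49 and 47 counts in control, or 2.02 and 1.88 CPM, and 301 and 321 counts in Lhx2 cKO, or 13.2 and 14.0 CPM. Both Lhx2 cKO libraries lay far above both control libraries, and replicates lay close together. The group means were 1.95 ± 0.0992 and 13.6 ± 0.526 CPM (SD, n = 2), a 6.96-fold difference with a 95% interval of 2.36 to 3.24 on the log2 scale. The absolute log2 fold change of Egfr was larger than that of 99.8% of all genes tested. Leaving out any 1 library kept it between 2.75 and 2.84.

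Erbb2 (ENSMUSG00000062312.6) encodes a receptor that binds no known ligand of its own and serves as the partner of the others. It was at 14.0 and 15.5 CPM in control and at 12.1 and 12.5 CPM in Lhx2 cKO, so that its libraries did not overlap but lay close. The log2 fold change was -0.26 (SE 0.153), with a 95% interval from -0.57 to 0.05, which leaves room for a moderate fall as well as for almost no difference. Erbb2 shares exon sequence with Mien1 on the other strand in GENCODE M21, and the use of strand in counting is not given in the sources used here.

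Erbb4 (ENSMUSG00000062209.16), a neuregulin receptor known in cortical interneurons, was at 26.3 and 28.9 CPM in control and at 35.0 and 38.6 CPM in Lhx2 cKO. The groups did not overlap, and the difference was modest at 1.34-fold, a log2 fold change of 0.42 (SE 0.112). Markers of interneurons were also higher in sum: the 10 genes of that list added up to 333 to 376 CPM in control and 478 to 497 CPM in Lhx2 cKO, and 4 of the 10 (40%, against 20.8% of all genes) were called, all higher (Gad2, Sst, Npy and Maf). Lhx6, Gad1 and Dlx1 overlapped between the groups, with log2 fold changes of -0.06, -0.07 and 0.07. The other 7 of the 10 did not overlap, where 59.3% of all genes did not. Among these 7, Dlx2, Dlx5 and Calb2 were higher at 0.35, 0.20 and 0.37 but were not called. The part of interneurons in the Erbb4 difference was not tested.

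Both Olig genes were higher by a similar factor. Olig1 (ENSMUSG00000046160.7) was at 5.90 and 6.002 CPM in control and at 12.8 and 15.6 CPM in Lhx2 cKO. The group means of 5.95 ± 0.0737 and 14.2 ± 2.01 CPM (SD, n = 2) differed 2.39-fold, a log2 fold change of 1.25 (SE 0.179). Olig2 (ENSMUSG00000039830.10) was at 4.37 and 3.20 CPM in control and at 8.61 and 9.75 CPM in Lhx2 cKO. Its means of 3.79 ± 0.828 and 9.18 ± 0.804 CPM differed 2.43-fold, a log2 fold change of 1.28 (SE 0.22). For both genes the lower Lhx2 cKO library lay well above the higher control library. Per kilobase of gene length, the level of Olig1 relative to that of Olig2 was 1.58 and 2.19 in control against 1.74 and 1.88 in Lhx2 cKO, so the ratio overlapped between the groups. Olig1 shares exon sequence with the noncoding gene Gm15966 on the other strand.

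With all libraries the committed precursor markers had smaller log2 fold changes than Egfr and the Olig factors. The 95% interval of Pdgfra, 0.55 to 1.24, overlapped that of Olig1, 0.89 to 1.62, and the interval of Sox10, given below, covered both Olig values. Without control 2 the order turned in part, with Sox10 at 1.43 and Pdgfra at 1.10 against Olig2 at 1.07. Olig1 at 1.27 stayed above Pdgfra, and Egfr at 2.75 stayed above them all. Pdgfra (ENSMUSG00000029231.16) was at 7.34 and 9.52 CPM in control and at 13.7 and 17.7 CPM in Lhx2 cKO, without overlap. The means of 8.43 ± 1.54 and 15.7 ± 2.83 CPM (SD, n = 2) differed 1.86-fold, a log2 fold change of 0.90 (SE 0.171). Pdgfra is also expressed by fibroblasts of the meninges, whose list summed to 52.3 to 52.9 CPM in control and 34.7 to 35.3 CPM in Lhx2 cKO. Of the 5 fibroblast genes tested out of 9, Col1a1 alone (20%, against 20.8% of all genes) was called. It was lower, from a mean of 24.4 to 3.05 CPM, which makes up the fall in the sum. The other 4 were not called, with log2 fold changes of 0.25 for Col1a2, 0.20 for Col3a1, 0.35 for Crabp2 and -0.03 for Foxc1, and the median of the list was 0.20. Pdgfra shares exon sequence with Gm42802 and Gm42803 on the other strand.

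Cspg4 (ENSMUSG00000032911.7) was at 26.5 and 31.2 CPM in control and at 37.5 and 37.6 CPM in Lhx2 cKO. The groups did not overlap, the Lhx2 cKO libraries were nearly equal, and the difference was 1.30-fold, a log2 fold change of 0.38 (SE 0.112). It was 0.26 without control 1 and 0.50 without control 2. NG2 is also made by pericytes, whose list summed to 232 to 247 CPM in control and 221 to 235 CPM in Lhx2 cKO. Among 7 genes tested out of 8, Vtn was called higher and Rgs5 lower (28.6%, against 20.8% of all genes).

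Sox10 (ENSMUSG00000033006.11) was the member with the fewest counts, 17 and 46 in control against 46 and 41 in Lhx2 cKO. This is 0.701 and 1.84 CPM in control and 2.02 and 1.79 CPM in Lhx2 cKO, so that control 2 lay within the range of the Lhx2 cKO libraries and control 1 lay below the other 3. The exact 95% Poisson interval of the 17 counts runs from 9.90 to 27.2, and that of the 46 counts in control 2 from 33.7 to 61.4, so the control libraries differed beyond counting error. The log2 fold change was 0.58 (SE 0.427), with a 95% interval from -0.29 to 1.44. Without control 1 it was 0.04 and without control 2 it was 1.43, so the sampled difference rests on which control library is kept.

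Set side by side by role, the median log2 fold change was 1.27 for the 2 Olig factors, 0.58 for the 3 committed precursor markers and 0.42 for the 3 receptors tested, against 0.0034 over all genes. The receptors ranged from -0.26 to 2.80, the committed markers from 0.38 to 0.90, and the Olig factors from 1.25 to 1.28. The receptor median therefore describes Erbb4 and not Egfr. The committed marker median was 0.26 without control 1 and 1.10 without control 2.

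The same contrast between Egfr and the committed markers can be read within each library, where scaling between libraries cancels. Per kilobase, the level of Egfr relative to that of Pdgfra was 0.244 and 0.175 in control against 0.854 and 0.698 in Lhx2 cKO. Relative to Cspg4 it was 0.0803 and 0.0636 in control against 0.371 and 0.391 in Lhx2 cKO. Relative to its partner Erbb2 it was 0.0663 and 0.0559 in control against 0.502 and 0.513 in Lhx2 cKO. All 3 ratios were separated between the groups. The level of Olig2 relative to that of Pdgfra was 2.36 and 1.33 in control against 2.49 and 2.18 in Lhx2 cKO, which overlapped. For Olig1 relative to Pdgfra it was 3.725 and 2.92 in control against 4.32 and 4.09 in Lhx2 cKO, which did not overlap.

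Per kilobase of gene length, the levels in control ran from Erbb2 at 2.83 CPM per kilobase through Olig1 (2.75), Cspg4 (2.42), Erbb4 (2.23), Olig2 (1.497), Pdgfra (0.841) and Sox10 (0.417) to Egfr at 0.172. In that order Erbb2 could not be separated from Olig1, nor Cspg4 from Erbb4, by their libraries. In Lhx2 cKO the order was Olig1 at 6.57 CPM per kilobase, Olig2 (3.63), Cspg4 (3.15), Erbb4 (2.98), Erbb2 (2.37), Pdgfra (1.57), Egfr (1.20) and Sox10 (0.624), and the libraries of neighbours in this order did not overlap. Per kilobase, Egfr thus moved from last place, below Sox10 in both control libraries, to above Sox10 in both Lhx2 cKO libraries. Even so its level per kilobase in Lhx2 cKO remained under those of Erbb2 and Erbb4. These orders depend on the deposited lengths, whose derivation is not given in the sources used here. In CPM, Egfr lay above Sox10 in control too, at 2.02 and 1.88 against 0.701 and 1.84. In Lhx2 cKO the 13.2 and 14.0 CPM of Egfr lay above Erbb2 (12.1 and 12.5) but below Erbb4 (35.0 and 38.6).

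**Figure D2:**
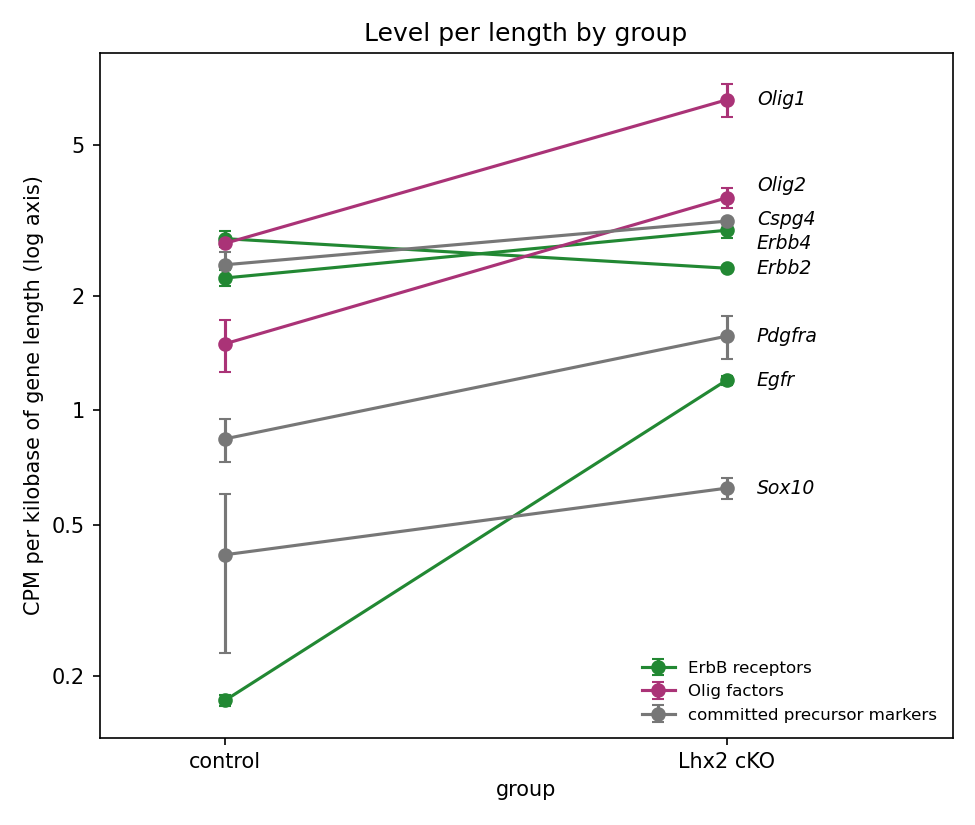
Mean CPM per kilobase of deposited gene length (log axis) of the 8 members in control and Lhx2 cKO, with error bars from the lower to the higher library of each group. Lines join the groups and colours give the role; the line of Egfr is the steepest and crosses that of Sox10, and the line of Erbb2 is the only one that falls.

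Of 11 genes for ErbB ligands, 7 were tested, and 3 of the 7 (42.9%, against 20.8% of all genes) were called, all higher. Nrg3, a neuregulin that binds ErbB4, was at 25.2 and 28.0 CPM in control and at 40.4 and 44.8 CPM in Lhx2 cKO, a log2 fold change of 0.68 (SE 0.111, edgeR adjusted p 9.07e-06). Nrg2, another neuregulin, was at 2.56 and 3.12 CPM in control and at 4.79 and 5.35 CPM in Lhx2 cKO, a log2 fold change of 0.84 (SE 0.273, edgeR adjusted p 0.0238). Hbegf, a ligand of EGFR and ErbB4, was at 10.2 and 9.48 CPM in control and at 12.4 and 15.2 CPM in Lhx2 cKO, a log2 fold change of 0.48 (SE 0.165, edgeR adjusted p 0.0308). The calls of Nrg2 and Hbegf were lost in DESeq2, with adjusted p of 0.0538 and 0.0872, and when control 1 or Lhx2 cKO 2 was left out, that of Hbegf also without control 2.

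The other 4 ligands tested had libraries that overlapped between the groups. Nrg1, the most abundant of them, was at 29.7 and 36.0 CPM in control and at 27.1 and 30.0 CPM in Lhx2 cKO. Egf was at 6.85 and 7.44 CPM in control and at 8.22 and 6.14 CPM in Lhx2 cKO. Tgfa, a ligand of EGFR, was at 4.87 and 3.96 CPM in control and at 4.04 and 5.14 CPM in Lhx2 cKO. Nrg4 was at 4.45 and 4.72 CPM in control and at 4.79 and 3.40 CPM in Lhx2 cKO. The ligands dedicated to EGFR that were tested thus showed no separation of the groups beside the separation seen in Egfr itself.

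Around the receptors, 5 of 20 genes for adaptors, sheddases and feedback (25%, against 20.8% of all genes) were called, 3 higher and 2 lower. Lrig1, a membrane protein that promotes the loss of ErbB receptors from the surface, rose from 11.5 and 13.0 CPM in control to 18.7 and 19.6 CPM in Lhx2 cKO, a log2 fold change of 0.64 (SE 0.147, edgeR adjusted p 0.00118). Erbin, a scaffold that binds ErbB2, fell from 46.7 and 53.5 CPM to 32.6 and 28.5 CPM, a log2 fold change of -0.71 (SE 0.109, edgeR adjusted p 3.07e-06). Eps8, a substrate of EGFR, at 0.50, and the sheddase Adam10 at 0.27 were called higher, and the ubiquitin ligase Cbl at -0.28 was called lower on the log2 scale. These last 3 lay near the threshold, with adjusted p from 0.0398 to 0.0497 in edgeR. Each lost its call in DESeq2, when libraries were scaled by their totals alone, and when control 1 or Lhx2 cKO 2 was left out. Eps8 and Adam10 also lost theirs under RLE scaling, Eps8 in limma-voom and Adam10 without the filter on low counts. Errfi1, an inhibitor induced by EGFR signalling, was at 9.28 and 9.24 CPM in control and at 11.4 and 10.4 CPM in Lhx2 cKO and was not called. Lrig1 shares exon sequence with Slc25a26 on the other strand.

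Of 26 further genes known in oligodendrocyte precursors, 18 were tested, and 11 of them (61.1%, against 20.8% of all genes) were called, 8 higher and 3 lower. The list was written with results of these data known, and its median log2 fold change was 0.52. Bcan, a proteoglycan of the brain matrix, had the smallest p, with 31.5 and 39.7 CPM in control and 87.2 and 88.5 CPM in Lhx2 cKO (log2 fold change 1.30, SE 0.107, edgeR adjusted p 1.18e-12). Ednrb, an endothelin receptor, rose by 0.95, and Cspg5, a transmembrane proteoglycan, rose by 0.78 on the log2 scale. Matn4, a matrix protein, went from 17 and 7 counts in control to 74 and 61 counts in Lhx2 cKO, a log2 fold change of 2.58 (SE 0.456). Also called higher were Vcan, Tnr, Gpr17, a receptor of precursors about to differentiate, at 1.22, and Lhfpl3 at 1.11, these 4 being named after their values were seen.

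The genes of that list called lower were Sox9 at -0.73, Sox6 at -0.65 and Ptprz1 at -0.53 on the log2 scale, all of which are also expressed by radial glia, the progenitors of the cortex. The list is thus not specific to precursors, and which cells carried its higher or its lower genes was not tested. Sox8, the close relative of Sox10, was at 8.21 and 6.24 CPM in control and at 6.11 and 6.79 CPM in Lhx2 cKO, and so overlapped. Matn4 shares exon sequence with Rbpjl and Gpr17 with Lims2, each on the other strand.

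Most of the tested genes of differentiating oligodendrocytes, the stage after the precursors, were not called. Of 17 such genes, 8 were tested and 1 (12.5%, against 20.8% of all genes) was called, the calcium channel gene Itpr2 at 0.61 (SE 0.167, edgeR adjusted p 0.00635), whose call was lost without control 1 or Lhx2 cKO 2. Mbp, for myelin basic protein, was at 11.05 and 9.92 CPM in control and at 11.4 and 9.84 CPM in Lhx2 cKO. Myrf, the transcription factor that drives myelin genes, was at 33 and 23 counts in control and at 20 and 29 counts in Lhx2 cKO.

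Oligodendrocyte precursors of the embryonic forebrain first arise in the ventral telencephalon, so genes of that region were read beside the members. Of 14 such genes, 8 were tested and 1 (12.5%, against 20.8% of all genes) was called, Gad2 at 0.48 (SE 0.116, edgeR adjusted p 0.00196), which makes the transmitter GABA. The list summed to 175 to 209 CPM in control and 197 to 219 CPM in Lhx2 cKO, which overlapped. Dlx2, a factor of ventral progenitors, was at 19.9 and 17.4 CPM in control and at 24.7 and 22.6 CPM in Lhx2 cKO with an adjusted p of 0.0542 in edgeR. Nkx2-1, Gsx1 and Gsx2, which define ventral progenitors, were not analysed here.

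**Figure D3:**
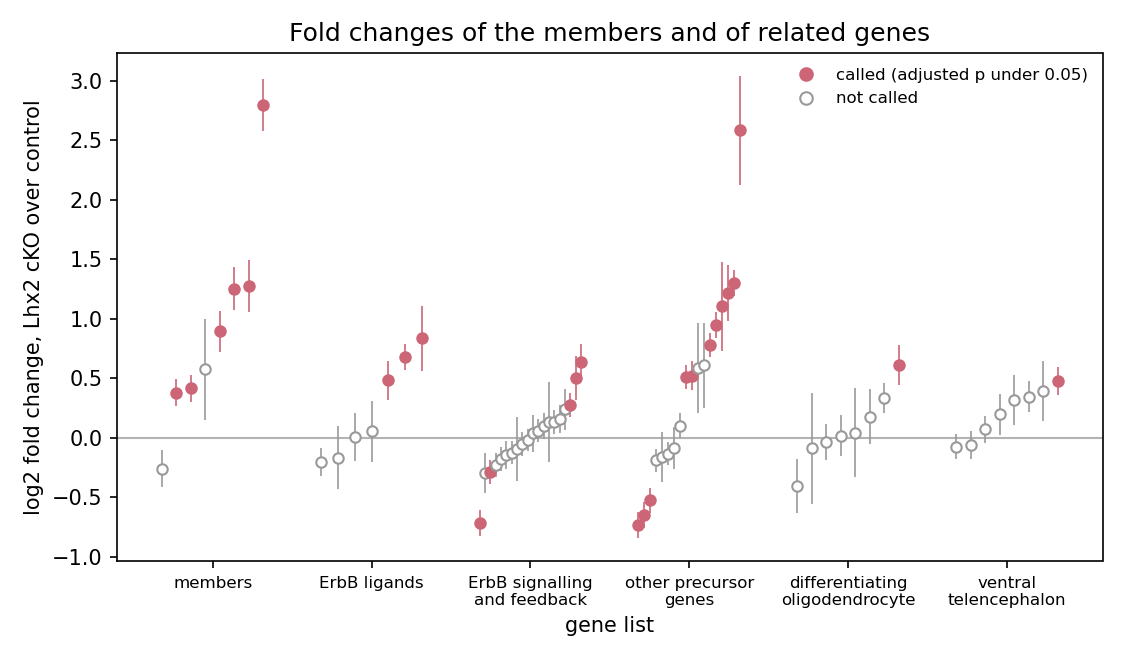
Log2 fold change of Lhx2 cKO over control for each tested gene of the members and of 5 related lists, with bars of 1 standard error; filled points were called at an adjusted p under 0.05. Egfr at 2.80 and Matn4 at 2.58 stand highest, and the differentiating oligodendrocyte list has 1 filled point among 8.

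Markers of other cell types moved as well, and their part in the members' differences was not tested. Astrocyte markers summed to 175 to 203 CPM in control and 255 to 257 CPM in Lhx2 cKO. Of the 7 tested of 8 listed, 5 (71.4%, against 20.8% of all genes) were called, all higher. Microglial markers summed to 116 to 117 CPM in control and 232 to 259 CPM in Lhx2 cKO, with 7 of 8 (87.5%) called, all higher. Endothelial markers summed to 150 to 185 CPM and 234 to 274 CPM, with 6 of 7 (85.7%) called, all higher. Of 8 genes of the neural crest and Schwann cells, which also express Sox10, 3 were tested. Their sum was 25.6 to 27.0 CPM in control and 19.8 to 22.8 CPM in Lhx2 cKO. Dct alone (33.3%, against 20.8% of all genes) was called, and it was lower, from a mean of 7.69 to 0.175 CPM. Ngfr, the most abundant of the 3, and Mitf were not called, with log2 fold changes of 0.20 and -0.08. No tested marker of these lists was at 0 counts in any library.

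**Figure D4:**
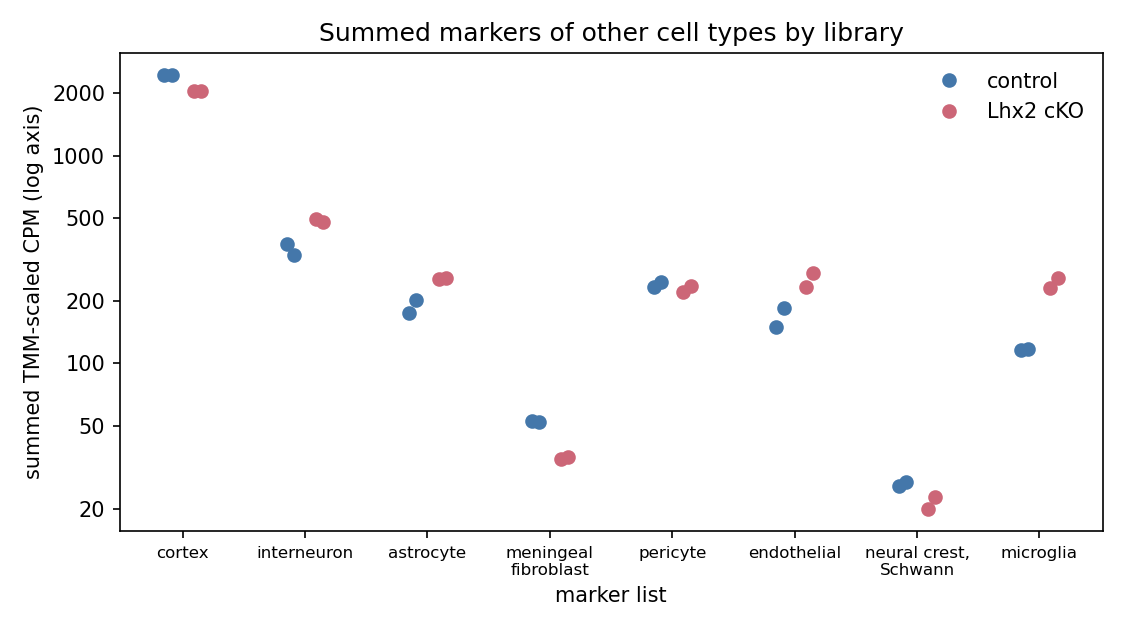
Summed TMM-scaled CPM (log axis) of the tested genes of 8 marker lists in each of the 4 libraries. Sums of interneuron, astrocyte, endothelial and microglial markers were higher in both Lhx2 cKO libraries than in both control libraries, those of cortex, meningeal fibroblast and neural crest markers were lower, and pericyte sums overlapped. The lower fibroblast and neural crest sums come from Col1a1 and Dct.

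The genes whose pattern over the 4 libraries was most like that of a member were sought among 12448 non-member genes of at least 2 CPM on average, by the root mean square difference in centred log2 CPM. Nearest to Egfr was Ppp1r14c, an inhibitor of protein phosphatase, with a difference of 0.0286, at 9.81 and 9.40 CPM in control and 64.5 and 69.8 CPM in Lhx2 cKO. It was followed by Ddx60, Tacr1, Aldh1l1 and C920006O11Rik, with differences from 0.0912 to 0.139. Aldh1l1, a folate enzyme used as an astrocyte marker, was at 4.83 and 4.80 CPM in control and 30.8 and 27.0 CPM in Lhx2 cKO. Nearest to Olig2 were Angpt1, Cbs, Grem1, Cd83 and Sphkap, with differences from 0.0459 to 0.0727. Over only 4 libraries such likeness mostly reflects the size of the difference between the groups.

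In the authors' deposited table, Egfr, Olig1, Olig2 and Pdgfra are marked as up, while Erbb2, Erbb4, Sox10 and Cspg4 are marked NS. Of these 4, the authors' deposited table gives adjusted p of 0.00674 for Erbb4 and 0.0157 for Cspg4, with log2 fold changes of 0.41 and 0.37. The authors' deposited table gives log2 fold changes of 2.79 for Egfr, 1.25 for Olig1, 1.27 for Olig2 and 0.89 for Pdgfra.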

How the data were processed

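RNA-seq of polyadenylated RNA was measured in 2 control and 2 Lhx2 cKO libraries of E15 mouse cortex, grouped by their titles. The deposited counts are whole numbers of reads per gene; the submitters' processing notes name Trim Galore, Subread, featureCounts, edgeR and the build mm39, without roles. The annotation and the use of strand are not given in the sources used here. The authors also deposited log2 fold changes, mean log2 CPM, p-values with adjusted p-values, the -log10 of the latter, and gene lengths. The lowest row total was 102 counts, so rows of few counts are not analysed here.

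Counts were fitted over the whole table with edgeR 4.0.16 in R 4.3.3 (TMM; filterByExpr with a minimum of 10 counts, which left 13288 of 13289 genes; glmQLFit and glmQLFTest, group only; two-sided; Benjamini-Hochberg over all genes tested; called under 0.05). TMM factors ran from 0.973 to 1.02. The test was checked on simulated data. The standard error is the absolute log2 fold change over the square root of F; 95% intervals use the residual plus 38.7 prior degrees of freedom. Replicates differed by more than counting error (chi-square over its degrees of freedom, 13.9 in control and 14.3 in Lhx2 cKO). Intervals and floors on counts cover counting error only. Exon overlaps come from GENCODE M21 and promoters from RefSeq, both on GRCm38, used for names and sequences only. Members and lists were chosen with earlier results of these data known. Named were every member, every ErbB ligand tested, up to 4 called genes per list and direction by smallest p, and the 5 genes most like Egfr and Olig2. Alternatives were other scalings (RLE, upper-quartile, library totals), no filter or a mean count of at least 50, DESeq2 1.42.0, limma-voom with limma 3.58.1, a replicate block, an adjusted p under 0.01, and leaving out each library. Some genes of the lists are counted in the lists but not reported here by name.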

Additional observations from a re-analysis of the deposited data

How the results depend on the processing

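With all 4 libraries, the members' log2 fold changes moved by less than the spread between replicates under every scaling, filter, test and block run: Egfr stayed between 2.79 and 2.81 and Olig2 between 1.27 and 1.29. Sox10 was removed by the mean count of 50. The same 6 members were called under each of these settings, and 5 at an adjusted p under 0.01, where Cspg4 was lost. Over all genes 2758 were called, and 1697 at an adjusted p under 0.01. DESeq2 gave 1 called ErbB ligand in place of 3 and 3 signalling genes in place of 5. RLE size factors gave 3 signalling genes and library totals 2. At an adjusted p under 0.01 there were 1 ligand and 2 signalling genes. Upper-quartile factors gave 2 ventral telencephalon genes in place of 1. The cause was not tested, apart from the stricter threshold, which gives fewer calls by construction. Egf had no clear direction: its log2 fold change of 0.0063 turned to -0.0012 with library totals and -0.0085 with limma-voom.

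The deviations of same-numbered libraries correlated at 9.7e-04 over the genes. With 2 libraries per group this cannot show whether libraries of the same number were paired, and the titles do not say. Under the replicate block there were 2874 called genes, 2736 of them shared, the ventral telencephalon list had 2 called genes, and Egf was at -0.0036.

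Leaving out 1 library leaves a lone sample that is assumed to vary like the other group. All-gene calls then ranged from 1633 (without Lhx2 cKO 2) to 2396, with 1790 without control 1. The committed precursor median ranged from 0.26 to 1.10, ErbB ligand calls from 1 to 3, signalling calls from 2 to 4 and differentiating oligodendrocyte calls from 0 to 1. Of the 4 ligands that were not called, 3 had no firm direction: the log2 fold change ranged from -0.22 to 0.20 for Egf, from -0.13 to 0.22 for Tgfa and from -0.43 to 0.059 for Nrg4. Nrg1 stayed negative, from -0.34 to -0.053. Lhx2 lost its call without control 1, Lhx2 cKO 1 or Lhx2 cKO 2. Among members Sox10 had the fewest counts, 17 to 46 per library.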
